A study of Homo sapiens with 3 samples.

Results

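The 4 HOX clusters were described by the methylation of their CpGs in Hep3B, a human hepatocellular carcinoma cell line, with and without the transcription factor SOX4. Their members were the CpGs inside 4 intervals of GRCh37: HOXA at chr7:27130000-27250000, HOXB at chr17:46600000-46810000, HOXC at chr12:54330000-54450000 and HOXD at chr2:176950000-177060000. Of 7728 CpGs read in any library there, 5884 had at least 10 reads in all 3 libraries and were compared, out of 2238764 compared in the whole table. HOXA held 1938 of them, HOXB 1489, HOXC 1038 and HOXD 1419, and 38 HOX genes of these intervals were followed by name. The libraries were 1 of parental Hep3B cells and 1 from each of 2 SOX4 knockout lines of Hep3B made with CRISPR/Cas9, called line 1 and line 2 after their label numbers; the labels do not say whether a line is a single clone. Genomic DNA was captured with probes for CpGs, treated with bisulfite and sequenced, so the level of a CpG is the percentage of its reads that stayed unconverted. The knockout itself and the identity of the cells were not checked here, since DNA methylation holds no direct readout of either.

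HOX genes encode homeodomain transcription factors that give cells their position along the body axis. They lie in 4 clusters whose gene order follows where along the axis each gene is used, and genes with the same number in different clusters are paralogues. Polycomb proteins keep the clusters silent in cells that do not use them, and Trithorax proteins keep them active. In many tumours CpG islands of the clusters gain DNA methylation. A level between the extremes in a bulk library cannot be told apart from a mixture of fully methylated and unmethylated cells or alleles.

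Promoter sequences came from RefSeq on GRCh38.p14, each with 250 bases before and 50 after a start, and were laid on the files' GRCh37 positions by the spacing of their CpGs. The stretch of 30 bases richest in CpGs is shown for the lowest and the highest member promoter of HOXA and HOXD and for the only promoter measured in HOXB and in HOXC, because these sequences span the range from unmethylated to methylated. They are written 5′ to 3′ on the strand of the gene, with each CG in capitals.
HOXA13, chr7:27200291-27200320 of GRCh38, minus strand: gggaCGgCGCGggcCGCGgCGgggaCGaCG
HOXA2, chr7:27102901-27102930 of GRCh38, minus strand: aCGcaggcaccctCGcccccaCGtactcCG
HOXB1, chr17:48531011-48531040 of GRCh38, minus strand: ttcctagggaagCGcttgcccaggCGagCG
HOXC4, chr12:54016698-54016727 of GRCh38, plus strand: catggCGacCGCGgCGcccatttgcacaCG
HOXD11, chr2:176107092-176107121 of GRCh38, plus strand: CGatcCGcccccagCGCGCGCGtctCGgCG
HOXD12, chr2:176099594-176099623 of GRCh38, plus strand: cagcctCGtccttCGccatCGaacattgCG
HOXA13 and HOXD11 carried 8 CpGs in 30 bases, and the more methylated HOXA2 and HOXD12 carried 4. HOXB1 carried 3 and HOXC4 carried 5. Over the whole promoters the sequences held 44 CpGs in HOXA13, 27 in HOXD11, 19 in HOXD12, 15 in HOXC4 and 11 each in HOXA2 and HOXB1. Of the 44 in HOXA13 only 16 were compared. A promoter rich in CpGs could also be methylated: HOXA10 at its start 27213939 held 25 and was at 92.8% in parental cells. A relation of CpG number to level was not tested.

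The files held 104702738 CpG reads for parental cells, 96987706 for line 1 and 133170621 for line 2. In the clusters, the median depth of a compared CpG ran from 24 reads in HOXC of line 1 to 64 reads in HOXA of line 2. Each cluster took a share of its library's reads between 0.957 and 1.09 times that of the parental library.

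HOXA was the most methylated cluster in parental cells, and of the 4 it alone held large shares of CpGs at both extremes. The whole table held large shares at both extremes as well. The mean CpG level in HOXA was 50.3% in parental cells, 47.9% in line 1 and 49.9% in line 2. HOXD followed with 41.9%, 33.8% and 37.4% in the same order. HOXB and HOXC were the less methylated pair. HOXB had 32.6%, 24.7% and 28.2%. HOXC was lowest in parental cells, at 27.9%, with 24.7% in line 1 and 26.5% in line 2. The mean over the whole table was 42.7%, 38.7% and 40.6%, so only HOXA lay above it in every library. In all 4 clusters, as in the whole table, the order was parental, then line 2, then line 1.

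The spread of CpG levels set HOXA apart from HOXB and HOXD more than its mean did. In parental HOXA, 36.0% of CpGs were below 20% methylation, 38.0% were above 80% and 26.1% lay between. In HOXD 48.6% of CpGs lay between 20% and 80%, and in HOXB 42.9% did, against 19.5% over the whole table. HOXC was mostly unmethylated, with 59.2% of its CpGs below 20%, against 46.9% of the table. CpGs above 80% made up 10.9% of HOXB, 13.5% of HOXC and 17.5% of HOXD, against 33.6% of the table.

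**Figure D1:**
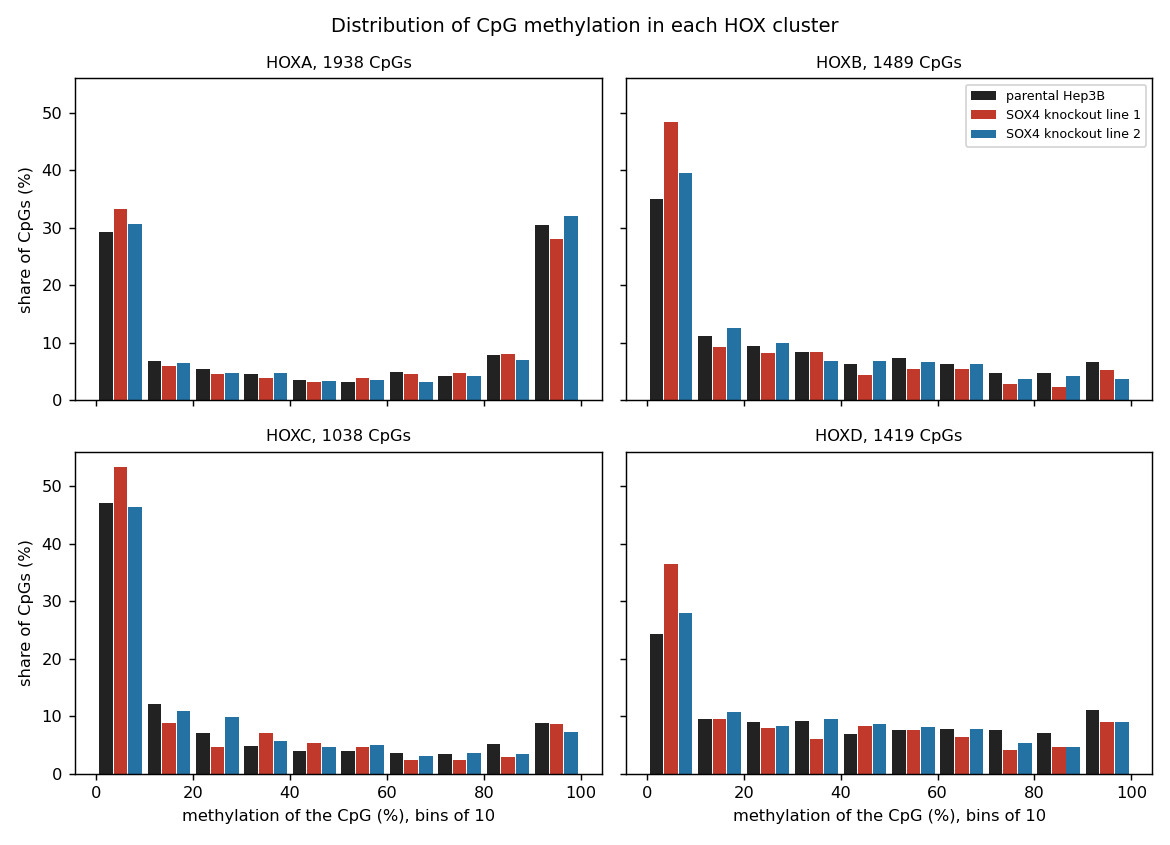
Share of CpGs (y axis, percent) in bins of 10 points of methylation (x axis, percent) for each HOX cluster, with 1 bar per library. HOXA has a peak at each end, whereas in HOXB, HOXC and HOXD the lowest bin stands out and the remaining CpGs spread over the range.

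Along the chromosome, HOXA alternated between blocks of 1 kb windows at opposite extremes. A window level was the mean over its CpGs where at least 5 were compared. Of 74 HOXA windows, 28 were above 80% and 19 below 20% in all 3 libraries. They formed 10 separate high runs and 14 separate low runs. In parental cells alone, 39.2% of HOXA windows were above 80% and 25.7% below 20%, beside 33.9% and 31.2% of windows in the table. Neighbouring windows at most 3000 bases apart differed by at least 50 points in 18 of 69 pairs in parental HOXA, and 17 of these steps were present in all 3 libraries. The same step occurred in 1 of 56 pairs in HOXB, 5 of 41 in HOXC and 7 of 48 in HOXD, and in 16.2% of pairs in the whole table.

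The HOXA runs can be followed from the 3′ end of the cluster, which holds the anterior genes, to the 5′ end, which holds the posterior genes. A run of 6 windows at 27141001-27149000 around the start of HOXA2, an anterior gene, had 96.2% in parental cells, 96.5% in line 1 and 95.7% in line 2. The window 27153001-27154000, which holds a start of HOXA3, was at 0%, 0% and 0.870%. Among the central and posterior genes high and low runs alternated. The run at 27195001-27197000 with the start of HOXA7 was low, at 13.2%, 10.6% and 9.57%. A run of 4 windows at 27184001-27188000 with the start of HOXA6 was at 93.5%, 87.2% and 93.9%. The run of 7 windows at 27203001-27211000, around the start of HOXA9, was at 91.8%, 88.6% and 91.4%. Beyond it, toward HOXA13, the levels were lower and mixed, and the last 5 windows at 27243001-27249000 had 38.6%, 29.4% and 36.6%.

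HOXB and HOXD had no window above 80% in all 3 libraries, and their highest parental windows were at 74.5% in HOXB and 80.3% in HOXD. In parental HOXB 49 of 70 windows lay between 20% and 80%, in HOXD 41 of 55, in HOXC 26 of 53 and in HOXA 26 of 74. These were 70%, 74.5%, 49.1% and 35.1% of windows, beside 34.9% of windows in the table. Within these intermediate windows single CpGs differed widely in every cluster: the median SD between the CpGs of a window was 24.6 points in HOXA, 27.2 in HOXB, 30.1 in HOXC and 27.2 in HOXD, beside 27.9 for such windows of the whole table. HOXC had 2 windows above 80% in all libraries. The higher of them, at 54412001-54413000 next to the shared start of HOXC4 and HOXC5, had 97.5%, 95.4% and 94.4%.

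**Figure D2:**
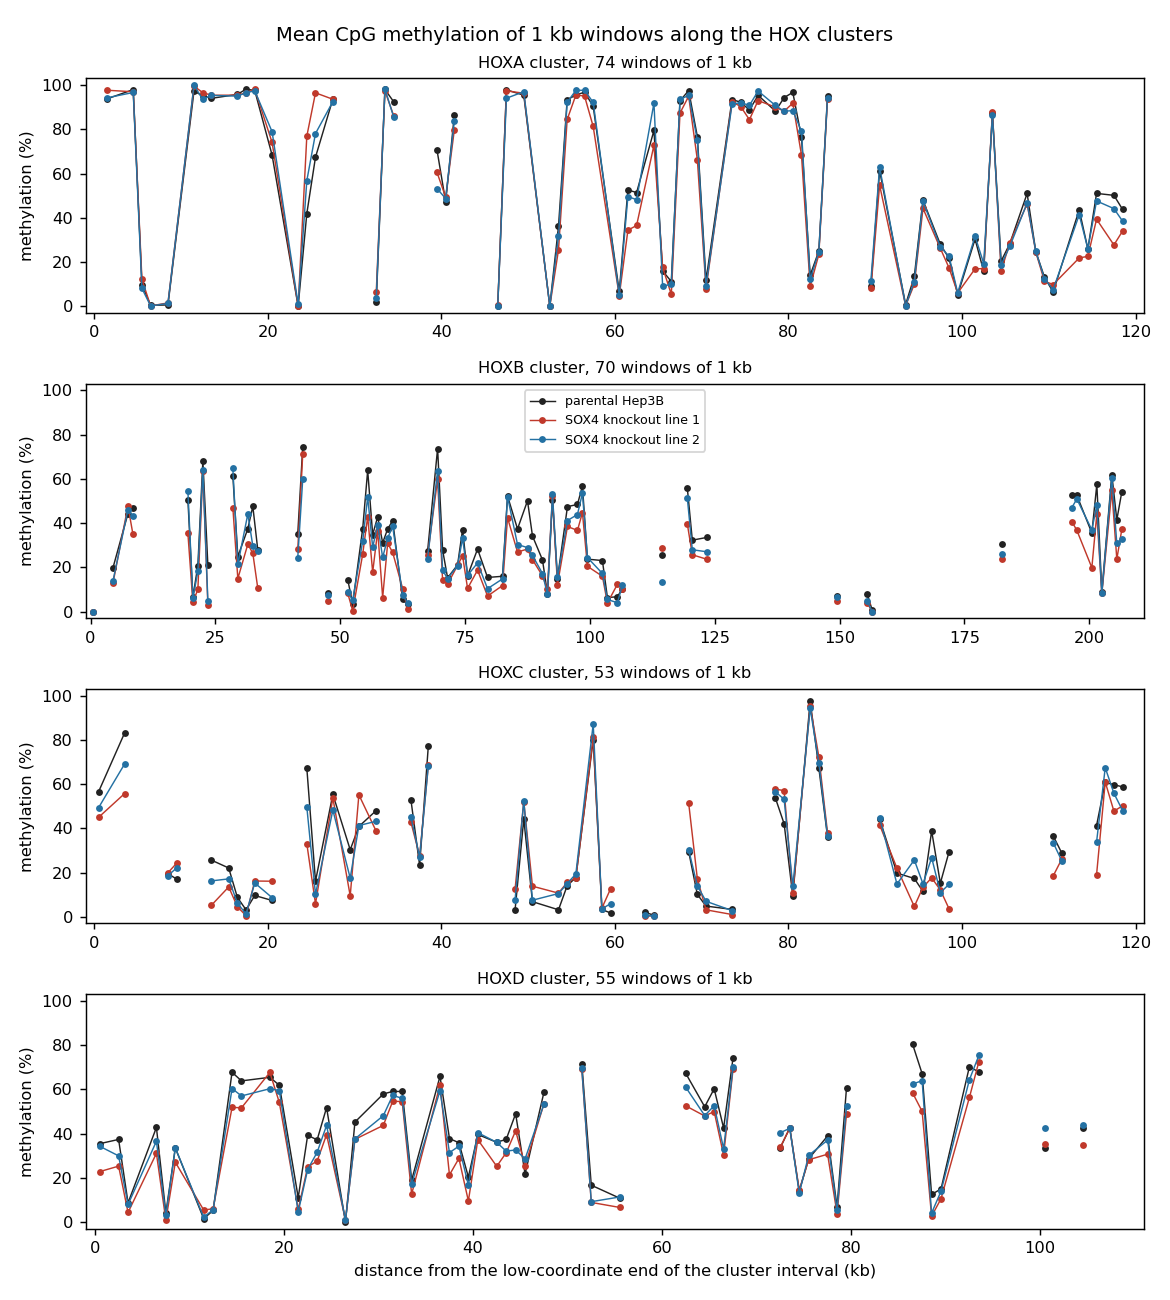
Mean CpG methylation (y axis, percent) of 1 kb windows with at least 5 CpGs against distance from the low-coordinate end of each cluster interval (x axis, kb), with 1 line per library and a break where windows lie more than 3 kb apart. HOXA swings between about the floor and the ceiling at the same places in all 3 libraries, with 28 windows above 80% and 19 below 20% in each of them.

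Promoter levels were obtained for 16 of the 38 HOX genes. RefSeq sequences were at hand for 20 genes, 18 of these could be placed by CpG spacing, and HOXA6 and HOXD13 were placed but had no CpG with enough reads in all 3 libraries. HOXD1 and HOXD4 could not be placed. HOXA5, HOXB2 to HOXB9, HOXB13, HOXC6, HOXC8 to HOXC13 and HOXD9 had no sequence in the table. The 16 genes had 19 distinct starts with a level. In parental cells 8 of these starts were below 20%, 8 lay between 20% and 80%, and 3 were above 80%. Over all 14584 promoters placed in the same way, 12.2% lay between 20% and 80% and 8.15% above 80%.

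In HOXA the promoters ranged over nearly the full scale. HOXA13, a posterior gene used in limb and hindgut, was lowest at 0% in parental cells, 0.149% in line 1 and 1.25% in line 2 over 16 CpGs. HOXA2, which patterns the hindbrain, was highest at 95.3%, 95.9% and 90.6% over 11 CpGs. HOXA9, a posterior gene known for its part in leukaemia, was at 91.3%, 84.3% and 88.1% over 22 CpGs. The posterior genes HOXA9 and HOXA13 thus lay at opposite ends.

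Starts of the same gene also lay at opposite ends. HOXA10, which patterns the uterus and the trunk, was at 92.8%, 93.8% and 93.8% at its start 27213939 and at 0.278%, 0.379% and 0% at its start 27219480. HOXA3, which patterns pharyngeal arch derivatives, had 4 starts with a level. At 27161991 it had 0.0813%, 0% and 0.126%, and at 27190569 it had 0.217%, 0.257% and 0.258%. The remaining starts of HOXA3 were not at the floor. Its start 27192202 was intermediate at 50.5%, 29.1% and 44.0% over 15 CpGs, with an SD between CpGs of 16.1 points in parental cells. Its start 27162646 was at 7.75%, 27.6% and 16.0% over 7 CpGs. These last starts moved in opposite directions, and they gave the lowest and the highest difference of line 1 among all HOX promoters, -21.4 and 19.9 points, with line 2 in between at both. The rise at 27162646 rests on the narrow promoter, since the knockout mean minus parental was 14.0 points there and 2.95 points over 1000 bases on each side of the start.

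The other HOXA promoters were at low or intermediate levels. HOXA4 was at 43.0%, 54.0% and 49.9% over 16 CpGs, with parental CpGs between 27.3% and 57.1%. HOXA11 was at 28.0%, 23.4% and 23.2%. HOXA7 was at 16.2%, 9.71% and 16.1%. No CpG of these 3 promoters was called different between parental cells and either line.

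In HOXD 4 of 5 measured promoters were intermediate. HOXD12, a posterior gene of the limb, was highest in parental cells at 64.5%, with 50.9% in line 1 and 62.3% in line 2 over 19 CpGs. HOXD11 was lowest at 12.8%, 6.53% and 4.71% over 25 CpGs. HOXD8 had the largest difference of line 2 among all HOX promoters, with 53.2% in parental cells, 45.2% in line 1 and 34.6% in line 2 over 28 CpGs, so that here line 2 was the lowest library. The other HOXD promoters differed little between libraries or were higher in both lines. HOXD10 was at 44.8%, 44.9% and 47.8%, and HOXD3 at 53.0%, 59.1% and 60.0%. The single measured HOXB promoter, HOXB1, was at 41.8%, 30.6% and 37.7% over 11 CpGs. The start shared by HOXC4 and HOXC5 was at 7.06%, 7.47% and 10.3% over 14 CpGs.

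No HOX promoter reached a difference of 25 points in either line. Over all placed promoters, 0.199% were higher and 1.6% lower by that much in line 1, and 0.103% were higher and 0.288% lower in line 2. The HOX promoter differences ran from -21.4 to 19.9 points in line 1, with a median of 0.0402 points, and in line 2 the median was -0.0917 points. Genes whose promoter sequence lacked a value could be seen only through windows: the window with the start of HOXA6 (27187001-27188000) was at 90.4%, 81.3% and 92.1%, and that with the start of HOXD13 (176957001-176958000) at 4.20%, 0.848% and 3.01%.

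**Figure D3:**
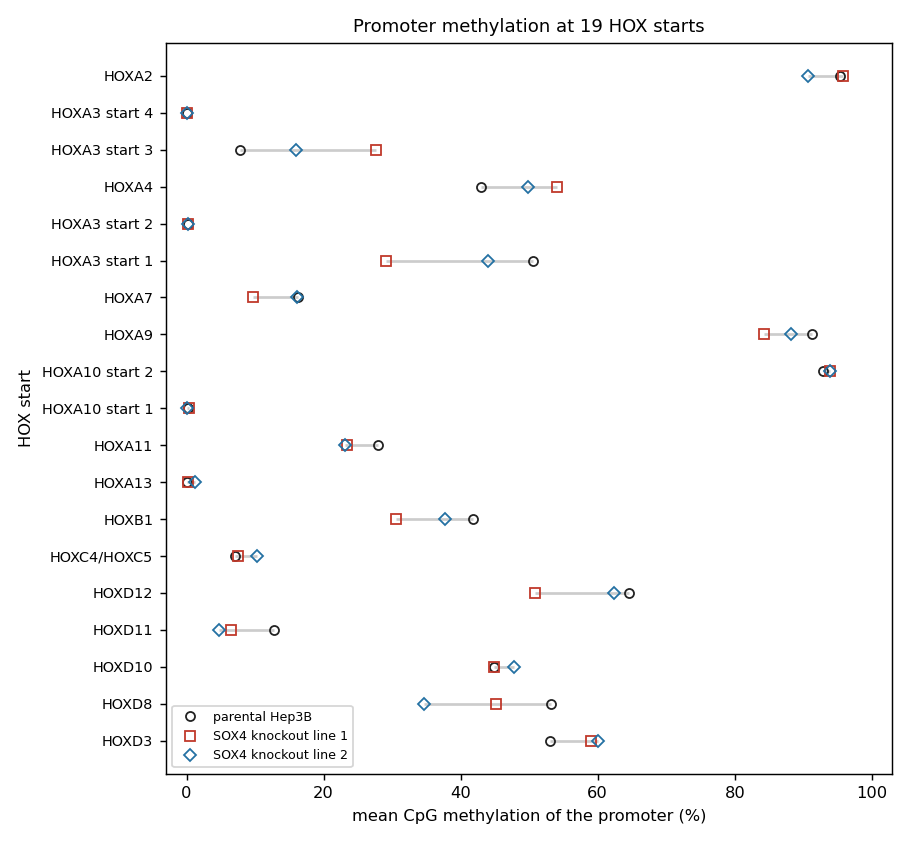
Mean CpG methylation (x axis, percent) of 19 HOX starts (y axis), with 1 symbol per library and a grey bar from the lowest to the highest. Most starts keep their place on the scale in all 3 libraries, and the longest bars belong to HOXA3 starts, which differ by -21.4 and 19.9 points in line 1.

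Against parental cells, the knockout lines had lower mean levels in all 4 clusters. The mean of both lines minus parental was -6.30 points in HOXD (knockout SD 2.57, n = 2), -6.13 points in HOXB (SD 2.47, n = 2), -2.29 points in HOXC (SD 1.26, n = 2) and -1.41 points in HOXA (SD 1.42, n = 2). Over the whole table it was -3.10 points. In HOXA the difference was narrowly within the SD between the lines, and in HOXB, HOXC and HOXD it was larger than that SD. The HOXA result depended on the processing. It was within the SD with at least 20 reads (-1.29, SD 1.41) and on the complementary strand only (-1.43, SD 1.46). It was beyond the SD as a read-weighted mean (-1.89, SD 1.03) and with at least 5 reads (-1.64, SD 1.48). With 1 parental library no exact permutation test can pass, because the smallest 2-sided p of 1 library against 2 is 0.333, and the spread of parental cells is unknown.

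CpGs were also grouped by their mean over the 3 libraries, a grouping that by itself keeps differences small below 20% and above 80%. For CpGs whose mean over the 3 libraries lay between 20% and 80%, line 1 minus parental was -12.8 points in HOXB, -12.2 in HOXD, -8.08 in HOXC and -4.35 in HOXA. Line 2 minus parental was -6.90, -6.92, -4.56 and -1.03 points in the same order. The CpGs of this class in the whole table had -14.5 points in line 1 and -7.38 in line 2, so HOX CpGs of intermediate level differed less from parental cells than such CpGs did over the table. Their parental means were also lower, from 48.8% in HOXC to 54.3% in HOXD, beside 57.6% in the table. Below 20% HOXB and HOXD differed more than the table, but their parental levels were also higher. The parental mean of this class was 8.59% in HOXB and 8.94% in HOXD, beside 3.43% in the table, which left the table less room to fall. Line 1 minus parental was -4.99 points in HOXB, -5.17 in HOXD, -1.24 in HOXC and -1.99 in HOXA, beside -1.57. Line 2 minus parental was -2.65, -2.36, 0.0168 and -0.573 points in that order, beside -0.769. For CpGs above 80% the cluster means differed by -1.60 to 0.965 points in line 1 and by -2.11 to 0.250 points in line 2.

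Most windows were lower in both lines in HOXB and HOXD, but not in HOXA or HOXC. In HOXB 53 of 70 windows were lower in both lines and 3 were higher in both. In HOXD 42 of 55 were lower and 7 higher, and in HOXA 36 of 74 were lower and 16 higher. HOXC was nearly even, with 25 of 53 windows lower and 22 higher in both lines. Of all windows in the table, 55.3% were lower and 19.9% higher in both lines, but both lines share the parental library in these counts. Line 1 differed by at least 10 points in 73 HOX windows, and line 2 lay between parental and line 1 in 65 of them, which is 89.0%, as in the whole table.

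**Figure D4:**
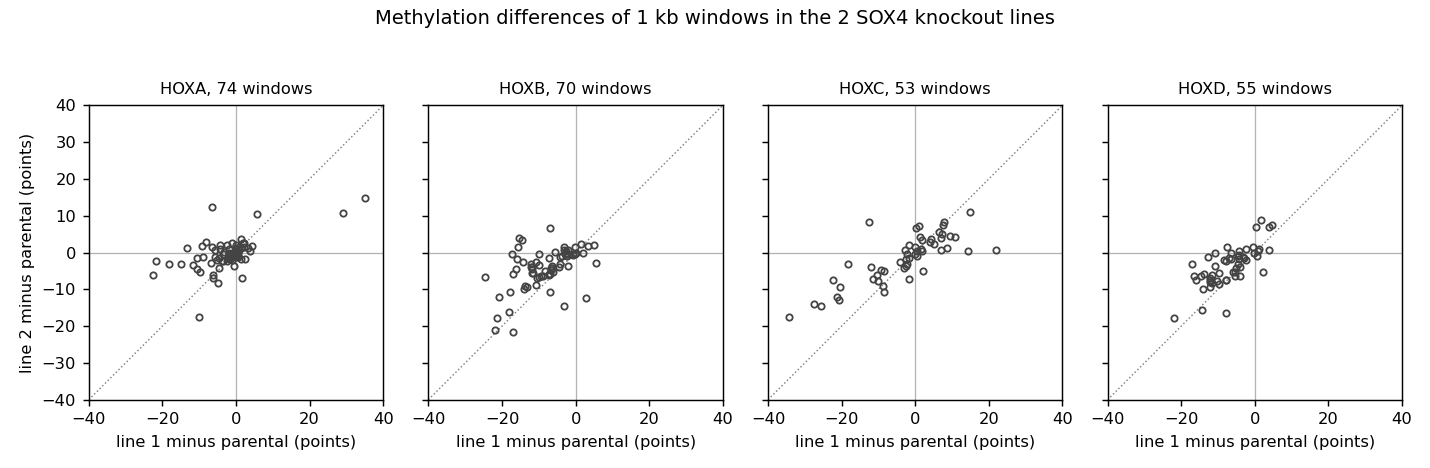
Difference of each 1 kb window from parental cells in line 1 (x axis, percentage points) and line 2 (y axis, percentage points), 1 panel per cluster, with a dotted line of equality. HOXB and HOXD windows lie mostly at the lower left, and HOXC windows lie on both sides of 0. Where line 1 differed by at least 10 points in HOXC, line 2 lay between parental and line 1 in 16 of 17 windows. In HOXA 2 windows stand alone at rises of 29.1 and 35.0 points in line 1.

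Single CpGs were compared between libraries by a 2-sided Fisher exact test with Benjamini-Hochberg adjustment over all 2238764 CpGs, and were called at an adjusted p under 0.05 with a difference of at least 25 points. These tests compare libraries, not conditions. In line 1, 96 HOX CpGs were higher and 323 lower than parental, or 1.63% and 5.49% of those compared, beside 0.599% and 4.46% of the whole table. Line 2 had far fewer calls. In line 2, 14 were higher and 41 lower, or 0.238% and 0.697%, beside 0.0831% and 0.713%. In both lines 10 were higher and 33 lower, or 0.170% and 0.561%, beside 0.0581% and 0.6%. Between the lines themselves 29 were higher and 64 lower in line 1, or 0.493% and 1.09%, beside 0.184% and 1.07%. Pooled over the 4 clusters, the share of lower HOX CpGs was thus near that of the table, and the share of higher ones was above it. Single clusters departed from the pool. In line 1 the lower share was below that of the table in HOXA and above it in HOXB, HOXC and HOXD. Neighbouring CpGs share reads, so these counts are not independent observations and their shares were not tested against each other.

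The clusters differed in where their calls lay. HOXC had the largest share of calls in line 1 although it was read least deeply, with 43 of 1038 CpGs higher and 70 lower, or 4.14% and 6.74%. The 43 rises were spread thinly, since the window with most of them held 5. The calls of HOXB and HOXD were mostly falls. HOXB had 14 of 1489 CpGs higher and 119 lower in line 1, or 0.940% and 7.99%. HOXD had 10 of 1419 higher and 100 lower, or 0.705% and 7.05%. HOXA had 29 of 1938 higher and 34 lower, and 18 of its 29 rises lay in 1 window of 24 CpGs; without that window 11 remained. In line 2 HOXB had 0 CpGs higher and 16 lower, and at an unadjusted p under 0.05 of the Fisher exact test 45 were higher and 161 lower, beside 36425 higher and 133699 lower of the 2238764 CpGs of the table.

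Of all HOX windows, 5 differed from parental by at least 25 points in line 1 and 0 in line 2, so that 0 did so in both lines. Of all windows in the table, 0.416% were higher and 4.15% lower by that much in line 1, 0.0901% and 0.628% in line 2, and 0.068% and 0.551% in both. In HOXA 2 windows were higher and 0 lower, and in HOXC 3 were lower and 0 higher. Between the 2 lines 0 HOX windows reached 25 points, beside 0.116% higher and 0.786% lower in the table.

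The HOXA rise was a compact block beside an unmethylated window that holds a start of HOXA3; no CpG of that promoter itself was compared. The window 27154001-27155000 was at 41.9% in parental cells, 76.9% in line 1 and 56.8% in line 2 over 6 CpGs, and all 6 were higher in each line. The next window, 27155001-27156000, was at 67.4%, 96.5% and 78.1% over 24 CpGs, with an SD between CpGs of 16.9, 4.81 and 12.8 points. Of these windows, 21 of 22 CpGs between 27154724 and 27155245, a stretch of 522 bases, were called higher in line 1. Over that stretch, which was delimited after its values were seen, the median CpG was at 57.5% in parental cells, 97.9% in line 1 and 69.9% in line 2. Line 1 was highest and line 2 was between at all 22 CpGs, which carried 19 to 86 reads in parental cells, 30 to 75 in line 1 and 37 to 119 in line 2. The block lies between placed starts of HOXA3, and the window before it, 27153001-27154000, was at 0%, 0% and 0.870%.

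CpGs of this block were among the HOXA CpGs that passed in both lines. At 27154915, 23 of 72 parental reads were methylated (31.9%, exact 95% interval 21.4 to 44.0), as were 58 of 69 line 1 reads (84.1%, 73.3 to 91.8) and 68 of 106 line 2 reads (64.2%, 54.3 to 73.2). The adjusted p of the Fisher exact test was 5.66e-08 in line 1 and 0.00709 in line 2. At 27155235 the level was 55.6%, 93.5% and 92.0%, with adjusted p = 0.0275 and 0.0347 by the same Fisher exact test. The HOXA CpGs that fell furthest in both lines lay elsewhere. At 27200181, between the starts of HOXA7 and HOXA9, 47 of 73 reads, 19 of 75 and 25 of 80 were methylated, and at 27245158, beyond HOXA13, 40 of 47, 12 of 43 and 40 of 80. The HOXA window with the largest fall in both lines was 27169001-27170000, below the start of HOXA4, at 70.7%, 60.5% and 53.2% over 24 CpGs, none of which was called.

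In HOXC the largest fall was at 54354001-54355000, between the placed starts of LOC105369775 and HOXC5. Most HOXC genes had no placed start, so the gene nearest to the window was not determined. The window was at 67.3% in parental cells, 33.1% in line 1 and 49.7% in line 2 over 39 CpGs, of which 32 were lower in line 1 and 30 in line 2. Of them, 13 were called lower in line 1 and 3 in line 2. The other HOXC windows past 25 points were 54333001-54334000, at 83.1%, 55.7% and 69.1% over 21 CpGs, and 54428001-54429000, at 29.4%, 3.67% and 14.7% over 18 CpGs, all 18 of them lower in line 1.

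**Figure D5:**
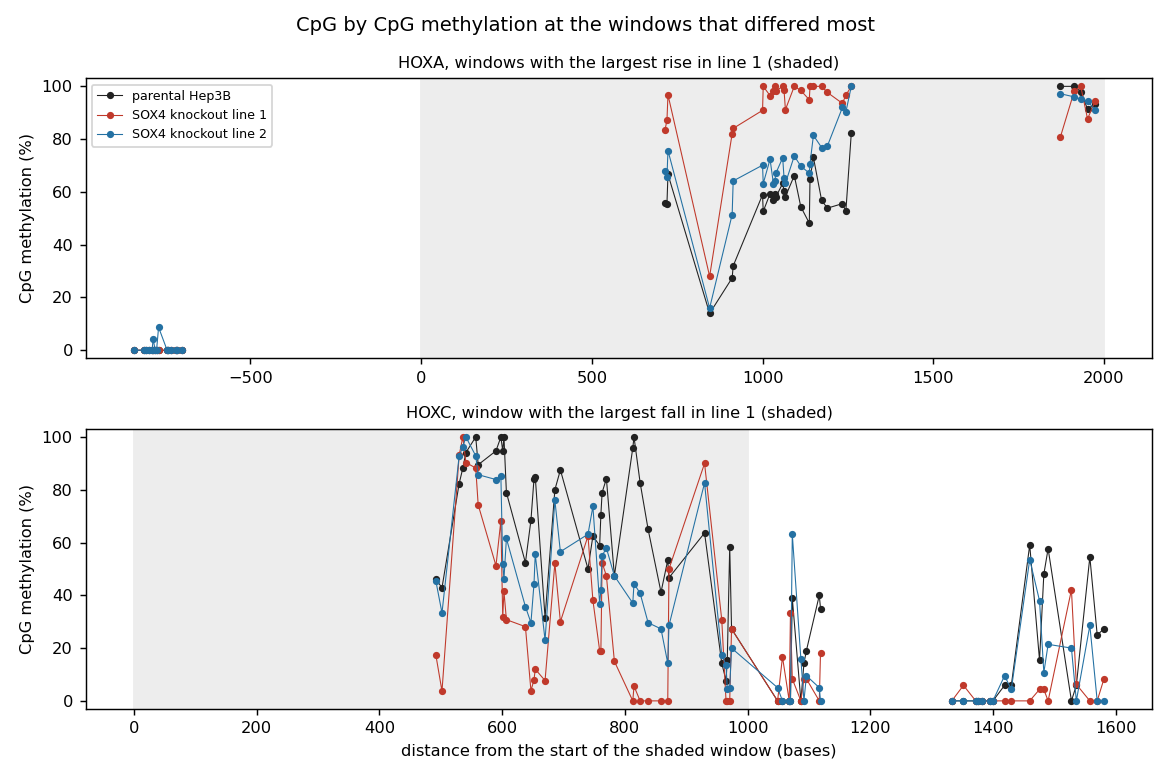
Methylation of single CpGs (y axis, percent) against distance from the start of the shaded window (x axis, bases) at the HOXA windows with the largest rise and the HOXC window with the largest fall, with 1 line per library. In HOXA line 1 runs near the ceiling where the parental median is 57.5%, and in HOXC the line 1 mean over the shaded window is 33.1% against 67.3% in parental cells, with line 2 between in both.

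HOXC CpGs called in both lines included changes of nearly the whole scale in line 1. At 54354814, in the window with the largest fall, 23 of 24 parental reads were methylated (95.8%, 78.9 to 99.9), against 0 of 18 line 1 reads (0%, 0 to 18.5) and 10 of 27 line 2 reads (37.0%, 19.4 to 57.6). The Fisher exact test gave adjusted p = 1.18e-08 in line 1 and 0.00249 in line 2. At 54339637, 3 of 25 parental reads were methylated (12%, 2.55 to 31.2), against 29 of 29 line 1 reads (100%, 88.1 to 100) and 21 of 27 line 2 reads (77.8%, 57.7 to 91.4). The Fisher exact test gave adjusted p = 8.68e-10 and 0.00081. This CpG lay outside the windows with the largest changes. At 54399495 the level rose from 30% to 96.2% in line 1 and 83.3% in line 2 in the same test. The window with the largest rise in both lines was 54409001-54410000, just below the start of HOXC4 and HOXC5, at 42.1%, 57.1% and 53.2% over 19 CpGs, with 5 called higher in line 1 and 0 in line 2. The lines parted most at 54398001-54399000, which was at 29.5% in parental cells, 51.5% in line 1 and 30.3% in line 2 over 7 CpGs.

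In HOXB the falls were spread over many windows. The largest in both lines was at 46687001-46688000, between the placed starts of HOXB-AS3 and LINC02086, at 50.1%, 28.3% and 28.9% over 13 CpGs, of which 1 was called in line 1 and 0 in line 2. The largest rise in both lines was small, from 5.49% to 10.4% and 7.53% at 46662001-46663000. CpGs called lower in line 1 lay in 42 of 70 windows, with 12 in the richest, 46796001-46797000. At the single CpG 46674067, near HOXB-AS3, 21 of 33 parental reads were methylated, 5 of 42 in line 1 and 14 of 67 in line 2, and the Fisher exact test gave adjusted p = 0.000268 and 0.00876. At 46655520, 11 of 11, 7 of 23 and 5 of 16 reads were methylated, differences of -69.6 and -68.8 points, and by the smaller of both lines' differences this was the largest fall among the named HOX CpGs. The lines differed most at 46619001-46620000, at 50.6%, 35.3% and 54.5% over 7 CpGs, which were read only 71 to 122 times in all per library.

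In HOXD the largest fall lay between HOXD3 and the noncoding gene HAGLR. The window 177036001-177037000 was at 80.3% in parental cells, 58.4% in line 1 and 62.5% in line 2 over 72 CpGs, with 11 called lower in line 1 and 3 in line 2. In it, CpG 177036440 had 31 of 31 methylated reads in parental cells, 15 of 37 in line 1 and 20 of 37 in line 2, with adjusted p = 2.95e-06 and 0.00207 by the Fisher exact test. The fall reached into the next window mainly in line 1. The adjoining window 177037001-177038000 had the largest gap between the lines, at 67.1%, 50.1% and 64.0%. The largest rise was at 177043001-177044000, beside a placed start of HAGLR, at 67.9%, 72.5% and 75.4% over 22 CpGs. There 12 of 43 parental reads were methylated at 177043144, 25 of 27 in line 1 and 51 of 63 in line 2, with adjusted p = 6.86e-06 and 6.3e-05 by the Fisher exact test. Inside the HOXD8 promoter, 10 of 13 parental reads, 3 of 24 in line 1 and 7 of 37 in line 2 were methylated at 176994296, with adjusted p = 0.0049 and 0.0343 by the Fisher exact test.

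Genes that act on HOX clusters or beside them were checked by the same promoter measure. Of 17 Polycomb genes 8 had a value, and all 9 of their starts were at or below 2.22% in parental cells. Of 10 Trithorax and demethylase genes 6 had a value, with parental levels up to 3.93% at 7 starts. Of 9 TALE cofactor genes, whose proteins bind DNA with HOX proteins, 4 had a value, and PBX4 was the only intermediate start at 23.6%, 5.79% and 14.1%. CDX2, the only ParaHox gene measured of 5 and a regulator of HOX genes in the gut, was at 25.8%, 3.37% and 14.9%. None of these lists had a promoter that differed by 25 points in either line.

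Genes inside or next to the cluster intervals were often at intermediate levels. Of 14 such genes 9 had a value, and 7 of the 9 starts lay between 20% and 80% in parental cells. PRAC2, near HOXB13, was at 71.5%, 53.2% and 63.6%, and its neighbour PRAC1 at 50.3%, 30.2% and 55.8%. EVX2, next to HOXD13, was at 61.7%, 60.6% and 61.9%, and HAGLR at 74.9%, 63.5% and 74.8%. EVX1, beyond HOXA13, was at 7.58%, 6.73% and 11.2%.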

How the data were processed

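Bisulfite capture libraries (TruSeq Methyl Capture EPIC, 500 ng of DNA in fragments of 150 to 200 bp) were analysed, 1 of parental cells and 2 of SOX4 knockout lines. The deposited files hold read counts per cytosine, not normalized, and a methylation level as a fraction that the authors computed as methylated over context reads; it equalled that quotient within 5e-07. The aligner, the caller and any removal of duplicates are not given in the sources used here; the submitters' processing notes name GRCh37 and hg19. Some 86.7% to 87.0% of reads were on the complementary strand.

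Reads of both strands of a CpG were summed and a CpG is named by the position of its G. CpGs needed 10 reads in every library, windows 5 CpGs and promoters 3 CpGs. Promoter sequences (RefSeq, GRCh38.p14) were placed by exact CpG spacing, with at least 6 CpGs matched. Of 27 HOX sequences 23 were placed, and those in HOXA and HOXD kept their mutual spacing. Spacing could not check HOXB1, the only HOXB sequence placed, or the start shared by HOXC4 and HOXC5, the only HOXC start placed. No annotation of GRCh37 was used. Percentages are means over CpGs; the 95% intervals (exact, Clopper-Pearson) hold counting error alone, as PCR copies of a molecule can be read more than once. Named were the lowest and highest promoter and the largest differences of each cluster, windows with the largest rise, fall and gap between lines, windows past 25 points, and CpGs with the largest changes in both lines. Members and lists were chosen with earlier results of these data known. Alternatives covered read minimum, thresholds, depth, windows, strand, promoter width and leaving out a line. The software was scipy 1.17.1, numba 0.67.0, numpy 2.4.6, matplotlib 3.10.9 and pandas 2.3.3 under Python 3.11.15.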

Additional observations from a re-analysis of the deposited data

How the results depend on the processing

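All 24 alternative values of the cluster mean differences stayed below 0, and each moved by no more than the SD between the lines. Values that leave out a line cannot move beyond that SD by construction, so they do not bear on that limit. Leaving out a line replaces the counts for both lines by those of the remaining one: CpGs higher in both ranged from 14 to 96 and lower from 41 to 323, windows higher from 0 to 2 and lower from 0 to 3, and promoters past 25 points stayed at 0. With windows at a difference of 10 points, 3 were higher and 14 lower in both lines, and with at least 20 reads 1 window was lower. At 50 points, CpG counts were 24 higher and 94 lower in line 1, 4 and 8 in line 2, 3 and 6 in both, and 4 and 11 between lines. At an adjusted p under 0.01 they were 62 and 201, 9 and 20, 5 and 16, with 30 lower between lines. With reads thinned to the shallowest library they were 9 and 16 in line 2, 6 and 14 in both and 35 lower between lines; at 10 points 101 were lower between lines. Without the window with most rises, chosen after seeing the data, line 1 kept 78 rises and 323 falls. Of 113 alternative values of the 19 promoter starts, 23 moved beyond the SD between the lines and 11 changed sign, 6 of them with promoters widened to 1000 bases each side of the start. Among the 113, those that leave out a line could not move beyond that SD. The widened promoters reversed HOXA4 (-3.45 points), HOXA3 at 27190569 (-3.82), HOXA10 at 27213939 (-1.02) and HOXD10 (from 1.52 to -6.03), and HOXA3 at 27162646 went from 14.0 to 2.95. HOXD10 (-1.82) and HOXA2 (2.78) also changed sign with at least 20 reads. HOXB1, the only HOXB promoter measured, went from -7.69 to -16.1 points as a read-weighted mean and to -15.3 with at least 20 reads. No paired analysis was possible because parental cells have 1 library, so the groups share fewer than 2 replicate numbers. At 10 reads a single CpG carries a wide interval, and differences below 25 points there were not detectable one by one. Larger differences could also go uncalled at such depths. At 176950801 in HOXD, 68% of 25 parental reads and 27.3% of 11 line 1 reads were methylated, and this CpG was not called.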
